A study of Mus musculus with 16 samples.

Results

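Trimethylation of histone H3 at lysine 4 (H3K4me3) was compared between jejunal epithelial cells of NCoR1 knockout and control mouse neonates. The 4297 regions described here are all regions of the authors' 2 H3K4me3 lists, of 23511 regions in 10 lists over 6 histone marks. In 131 regions the KO library stood above the WT library (KO-higher), and in 4166 the WT library stood above the KO library (WT-higher). The KO-higher share of all listed regions was 3.05% (Wilson 95% interval 2.58 to 3.61%). The KO group came from ΔIECUN neonates with NCoR1 deleted in the intestine, and the WT group from F/FUN neonates. Both groups were C57BL/6 mice taken at postnatal day 12, and the cells were isolated from jejunum and used fresh. The labels name neither the promoter that drives the deletion nor the number of animals in a library, and they do not explain the ending UN that both genotype names carry. The genome to which both groups' reads were mapped held, beside the mouse chromosomes, an added contig named for UGT1A. Each genotype had 1 H3K4me3 library, made with antibody Abcam ab8580, so nothing below has a replicate check and no test of genotype was possible.

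H3K4me3 is laid down by the SET1 and MLL methyltransferases around the start sites of genes that are transcribed or poised, and it is densest at promoters rich in CpG. NCoR1 is a corepressor that nuclear receptors without an activating ligand recruit, together with the deacetylase HDAC3. In the intestinal epithelium, the receptors LXR, FXR and PPAR govern sterol export, bile acid handling and the use of fatty acids.

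The regions were called by the authors on the difference between the 2 libraries, so a promoter with much H3K4me3 in both genotypes stands in neither list. For each region the values are the fragment pileup in the higher library at the summit and the local background in the other library, both at the depth of the WT library. The fold is the pileup plus 1 over that background plus 1, KO over WT for KO-higher regions and WT over KO for WT-higher regions. After duplicate removal the KO library held 29097769 tags and the WT library 24880783. Every named region is given with its position in mm9.

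The stretches about the summits below are examples of the DNA under each list. For each direction they are the 4 genes whose regions had the highest -log10 q, and Pdk4, Abca1, Srebf1 and Gle1, chosen after their values were seen as examples of a mitochondrial, a sterol export, a lipid synthesis and a CpG-rich promoter gene. All are read on the plus strand of mm9, 5′ to 3′, with CpG dinucleotides in capitals. The KO-higher stretches are:
Vil1, chr1:74448809-74449048: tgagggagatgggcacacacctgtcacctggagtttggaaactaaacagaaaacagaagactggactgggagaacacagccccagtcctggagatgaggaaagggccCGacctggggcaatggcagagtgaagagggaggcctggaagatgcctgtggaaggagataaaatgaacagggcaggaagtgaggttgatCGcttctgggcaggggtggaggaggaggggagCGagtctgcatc
Mt1, chr8:96703617-96703856: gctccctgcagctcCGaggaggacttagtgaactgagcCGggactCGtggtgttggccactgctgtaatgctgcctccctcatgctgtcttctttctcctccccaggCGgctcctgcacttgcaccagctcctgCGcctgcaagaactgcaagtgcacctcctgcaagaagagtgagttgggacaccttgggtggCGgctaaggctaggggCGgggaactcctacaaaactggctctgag
Gm11127, chr17:36220895-36221134: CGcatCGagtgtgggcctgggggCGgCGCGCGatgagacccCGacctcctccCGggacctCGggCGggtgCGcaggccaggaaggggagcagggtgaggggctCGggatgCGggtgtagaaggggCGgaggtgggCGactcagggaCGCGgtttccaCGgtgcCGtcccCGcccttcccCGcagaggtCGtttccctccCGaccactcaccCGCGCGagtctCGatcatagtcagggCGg
Sprr2a2, chr3:92023056-92023262: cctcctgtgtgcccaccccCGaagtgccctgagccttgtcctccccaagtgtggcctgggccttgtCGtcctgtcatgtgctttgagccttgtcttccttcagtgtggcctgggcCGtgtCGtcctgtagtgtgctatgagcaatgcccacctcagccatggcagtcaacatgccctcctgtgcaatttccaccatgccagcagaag
Pdk4, chr6:5444852-5445019: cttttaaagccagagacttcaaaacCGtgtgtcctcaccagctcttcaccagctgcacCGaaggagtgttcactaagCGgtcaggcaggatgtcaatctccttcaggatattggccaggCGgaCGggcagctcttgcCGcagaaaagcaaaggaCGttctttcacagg
Abca1, chr4:53171813-53172052: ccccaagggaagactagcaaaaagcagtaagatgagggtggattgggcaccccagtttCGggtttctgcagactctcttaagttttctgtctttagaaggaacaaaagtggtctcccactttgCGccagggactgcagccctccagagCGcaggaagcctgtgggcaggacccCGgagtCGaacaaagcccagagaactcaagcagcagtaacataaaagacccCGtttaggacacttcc
Srebf1, chr11:60022073-60022312: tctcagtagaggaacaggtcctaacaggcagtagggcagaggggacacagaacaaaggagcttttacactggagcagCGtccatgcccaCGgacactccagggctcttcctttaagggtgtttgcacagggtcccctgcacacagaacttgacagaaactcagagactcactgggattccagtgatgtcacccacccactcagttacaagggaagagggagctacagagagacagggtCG
The WT-higher stretches are:
Dynlt1b, chr17:6429360-6429552: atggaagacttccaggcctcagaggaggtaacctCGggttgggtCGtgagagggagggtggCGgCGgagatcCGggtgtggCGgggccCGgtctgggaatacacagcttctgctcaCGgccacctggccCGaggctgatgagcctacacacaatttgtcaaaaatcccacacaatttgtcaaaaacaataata
Tmem181b-ps, chr17:6476035-6476172: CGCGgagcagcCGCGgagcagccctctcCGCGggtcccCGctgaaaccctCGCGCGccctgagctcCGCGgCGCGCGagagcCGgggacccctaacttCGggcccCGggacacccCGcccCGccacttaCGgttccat
Bzw1, chr1:58449362-58449601: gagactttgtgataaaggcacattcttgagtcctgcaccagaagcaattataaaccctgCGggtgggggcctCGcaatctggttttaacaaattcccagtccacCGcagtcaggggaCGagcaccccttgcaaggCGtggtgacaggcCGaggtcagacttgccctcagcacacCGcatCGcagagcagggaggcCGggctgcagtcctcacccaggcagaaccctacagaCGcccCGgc
Trim71, chr9:114493117-114493272: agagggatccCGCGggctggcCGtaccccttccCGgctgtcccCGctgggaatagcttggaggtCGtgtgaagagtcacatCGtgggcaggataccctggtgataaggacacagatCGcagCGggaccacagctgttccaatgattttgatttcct
Gle1, chr2:29791050-29791202: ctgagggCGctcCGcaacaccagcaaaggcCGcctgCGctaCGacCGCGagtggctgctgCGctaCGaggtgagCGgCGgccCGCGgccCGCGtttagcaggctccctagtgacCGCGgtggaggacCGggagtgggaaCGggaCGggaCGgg
The 7 KO-higher stretches held 3 (Vil1), 7 (Mt1), 28 (Gm11127), 4 (Sprr2a2), 7 (Pdk4), 6 (Abca1) and 3 (Srebf1) CpG. The 5 WT-higher stretches held 9 (Dynlt1b), 21 (Tmem181b-ps), 11 (Bzw1), 9 (Trim71) and 21 (Gle1). The stretches differ in length and some were picked as examples, so the comparison of the lists rests on all regions. The region of Gle1, which encodes an mRNA export factor, lay 175 bp downstream of the gene's start, with a KO background of 56.4 against a WT pileup of 147.

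KO-higher regions were few, weak in both libraries and mostly away from promoters. Their median KO pileup was 21.4 against a median WT background of 4.0, and their median fold was 4.32 (KO over WT). For WT-higher regions the median KO background was 35.1 against a median WT pileup of 75, with a median fold of 2.1 (WT over KO). At 37 of 131 KO-higher regions (28.2%, 21.2 to 36.5%) the WT background was at the lowest value that the list held. The KO background was at its lowest value at 111 of 4166 WT-higher regions (2.66%, 2.22 to 3.20%). By these medians, KO-higher regions had little signal in the WT library, whereas WT-higher regions had signal in both. The KO-higher region with the lowest fold was at the promoter of Clic5, a chloride channel family gene of the microvillus, with a KO pileup of 57.3 against a WT background of 31 (fold 1.82). The regions with the lowest -log10 q were near Atp11b for the KO-higher list (1.33) and near Pla2r1 for the WT-higher list (1.30), at the cutoff of 1.30.

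**Figure D1:**
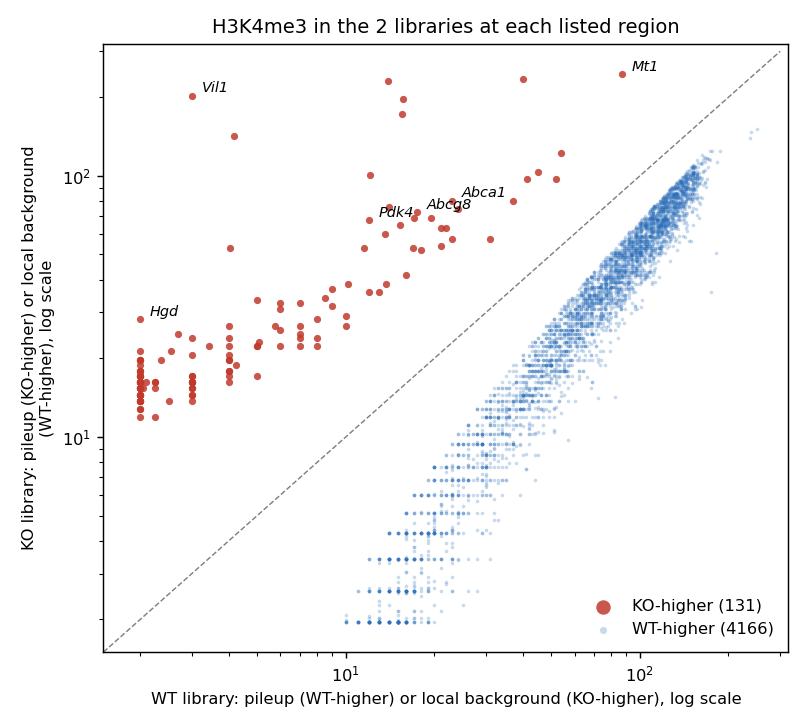
Each point is a listed H3K4me3 region, with its value in the KO library on the vertical axis and in the WT library on the horizontal axis, both as fragments at WT depth on log scales. KO-higher regions (131) cluster at WT backgrounds near 2 to 10, whereas WT-higher regions (4166) run below the dashed line of equal values up to pileups of 250.

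Of the KO-higher regions, 18 of 131 lay within 1 kb of a transcription start (13.7%, 8.87 to 20.7%). Of the 4141 WT-higher regions that could be placed, 2784 did (67.2%, 65.8 to 68.6%). KO-higher regions lay in introns at 44 sites (33.6%) and between genes at 59 (45.0%), and 45 (34.4%) had no start within 50 kb. WT-higher regions lay in introns at 420 sites (10.1%) and between genes at 790 (19.1%), and 381 (9.20%) had no start within 50 kb. The median CpG ratio, observed over expected, was 0.216 in KO-higher regions and 0.700 in WT-higher regions. The contrast was also present away from promoters, with medians of 0.198 in KO-higher and 0.48 in WT-higher regions. No CpG at all was found in 18 KO-higher regions (13.7%) and in 74 WT-higher regions (1.79%).

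The CpG content of the promoters themselves was graded for all genes, from the 1001 bp about the first start. A WT-higher H3K4me3 region within 1 kb of a start was found at 19.3% of the 6045 genes with a high CpG ratio (at least 0.75). The share was 17.9% of the 5851 intermediate genes and 3.78% of the 9791 low genes (ratio under 0.48). The 15 genes with a KO-higher promoter region split into 1 high, 6 intermediate and 8 low. These were 0.0165% of high (0.00292 to 0.0937%), 0.103% of intermediate (0.047 to 0.224%) and 0.0817% of low genes (0.0414 to 0.161%). The intervals overlap, so these 15 genes do not separate the CpG classes. Over all 21693 protein-coding genes, a KO-higher promoter region was present at 0.0691% and a WT-higher one at 11.9%. The motif GGGCGG, the core of the SP1 box, searched on both strands in 300 bp about each summit, was present in 11 of 131 KO-higher windows (8.40%) and in 1964 of 4141 WT-higher windows (47.4%). Among all promoters, in windows of the same length about the first start instead of a summit, 46.1% held it. CCAAT was present in 33.6% of KO-higher windows, in 20.5% of WT-higher windows and in 35.7% of promoters. AGGTCA, the nuclear receptor half-site, was present in 10.7%, 12.3% and 13.5% of the same 3 sets. Since the windows of regions and of promoters are centred differently, their shares are not like for like. At promoters alone, CCAAT was present in 22.2% of KO-higher and 16.5% of WT-higher windows, and GGGCGG in 11.1% and 55.5%. Away from promoters the shares were 35.4% and 28.6% for CCAAT, and 7.96% and 31.0% for GGGCGG.

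**Figure D2:**
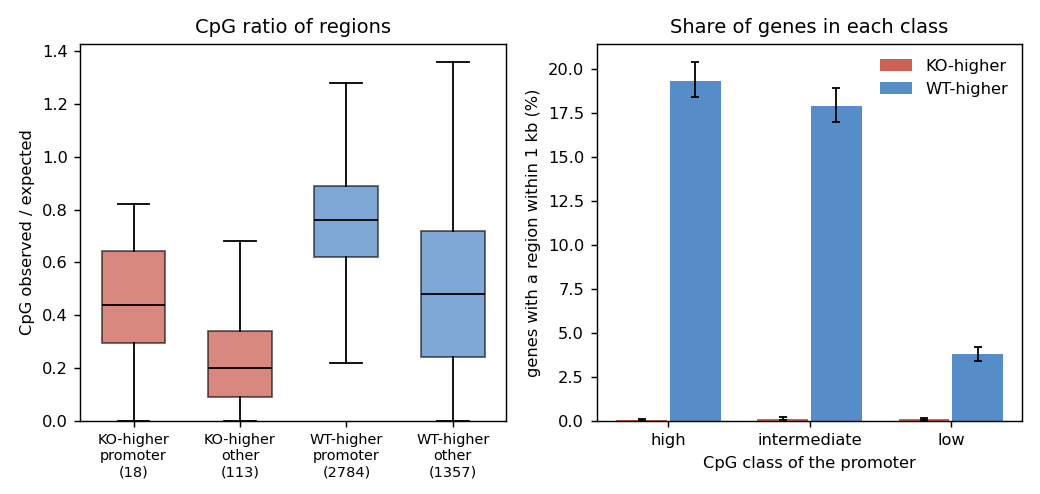
The left panel gives the observed over expected CpG ratio of regions (box, quartiles; line, median; whiskers, 1.5 times the box; outliers not drawn), KO-higher left of WT-higher. The right panel gives the percentage of genes in each promoter CpG class with a region within 1 kb of a start (bars with Wilson 95% intervals), 19.3%, 17.9% and 3.78% for WT-higher regions and under 0.2% in every class for KO-higher regions.

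At promoters, the summit lay downstream of the start in 17 of 18 KO-higher regions (94.4%, 74.2 to 99.0%), at a median of 375 bp. It lay downstream in 2203 of 2784 WT-higher regions (79.1%, 77.6 to 80.6%), at a median of 169 bp. The interval from 100 to 200 bp downstream alone held 726 WT-higher summits (26.1%). The 1 KO-higher promoter summit upstream of a start belonged to Zfp462, a zinc finger gene, at -400 bp from one of its starts.

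**Figure D3:**
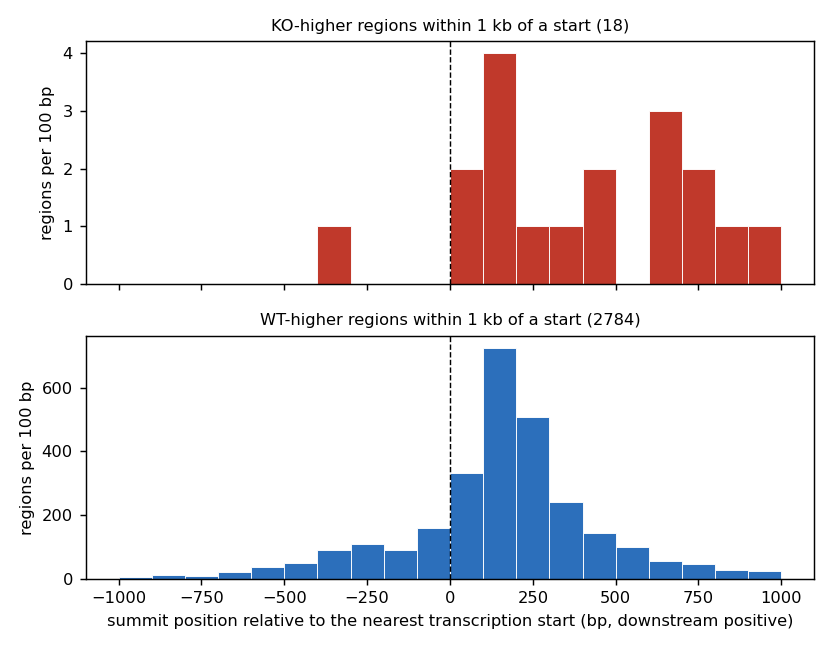
The bars count H3K4me3 regions within 1 kb of a start per 100 bp of distance from summit to start, KO-higher above (18 regions) and WT-higher below (2784). WT-higher summits peak 100 to 200 bp downstream, and 17 KO-higher summits spread over the first kilobase downstream.

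KO-higher regions belonged to 65 genes (0.300% of the 21693), by the nearest start within 50 kb, and WT-higher regions to 3303 (15.2%). Counting instead every gene with a region in its body or the 2 kb before it gave 56 (0.258%) and 3299 (15.2%). Ncor1, the deleted gene, had no H3K4me3 region in either list, so the lists give no check of the genotype labels. The KO-higher genes are taken first, by role.

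Sterol export genes carried KO-higher H3K4me3 inside the gene, downstream of the start. Abca1, which moves cholesterol out of the cell to apolipoprotein A-I, had 3 regions. The promoter region at chr4:53171769-53172052, 797 bp downstream of the start, had a KO pileup of 80.4 against a WT background of 23 (fold 3.39). A second at chr4:53172141-53172426 had a KO pileup of 97.5 against a WT background of 41.5 (fold 2.32), and the third, in an intron 32421 bp downstream, had a KO pileup of 26.5 against a WT background of 4.0 (fold 5.50). Abcg5 and Abcg8 encode the partners of the transporter that returns sterols to the gut lumen, and they lie head to head on chromosome 17, with gene models that overlap, so which of them a region belongs to is uncertain. The Abcg8 region at chr17:85084200-85084612 had a KO pileup of 72.7 against a WT background of 17.5 (fold 3.98). The 3 Abcg5 regions had KO pileups of 32.5, 63.3 and 80.4, against WT backgrounds of 6.0, 22 and 37. The highest signal of the trio was the one nearest a start, 68 bp downstream of it, and it had the lowest fold (2.14).

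Lipid synthesis genes followed. Srebf1, the sterol response factor that drives fatty acid synthesis, had 2 intronic regions. At chr11:60021666-60022464 the KO pileup was 53 against a WT background of 11.5 (fold 4.31), and at chr11:60022582-60023306 the KO pileup was 69.3 against a WT background of 19.5 (fold 3.44). Scd2, a stearoyl-CoA desaturase, had 3 regions from 696 to 3189 bp downstream of its start, with folds of 4.06, 3.53 and 4.09. The first of them, at chr19:44368641-44368961, had a KO pileup of 65 against a WT background of 15.3. Scd2 was also in the WT-higher list, through 1 region at -9221 bp from its start, where the KO background was 17.1 against a WT pileup of 46 (fold 2.60, WT over KO). Srebf2, the regulator of cholesterol synthesis, had a weak intronic region with a KO pileup of 35.9 against a WT background of 13. Of 23 LXR and FXR sterol and bile acid genes, a group put together with earlier results of these data known, 5 had a KO-higher region (Abca1, Abcg5, Abcg8, Srebf1 and Scd2; 21.7%, 9.66 to 41.9%) and 2 a WT-higher one (Scd2 and Nr1h3; 8.70%), beside 0.300% and 15.2% of all genes. Nr1h3, which encodes LXRα, had its WT-higher region at the promoter, with a KO background of 50.5 against a WT pileup of 89 (fold 1.75).

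Genes of fuel use, amino acid breakdown and other metabolism gave a few regions, of low KO pileup except for 1 at Pdk4. Pdk4, the kinase that shuts pyruvate dehydrogenase and a classic PPAR target, had a region at chr6:5444852-5445019, 1372 bp downstream of the start, with a KO pileup of 67.6 against a WT background of 12 (fold 5.27). It was the 1 of 29 listed PPAR and fatty acid genes in the KO-higher list (3.45%), and 5 (17.2%) were in the WT-higher list. The shares of all genes were 0.300% and 15.2%. Hgd, homogentisate dioxygenase of tyrosine breakdown, had 2 promoter regions. The stronger, at chr16:37580979-37581237, had a KO pileup of 28.2 against a WT background of 2.0 (fold 9.74). Fmo5, a flavin monooxygenase, had an intronic region with a KO pileup of 23.9 against a WT background of 3.0 (fold 6.24). Cyp3a25, a cytochrome P450, had 2 intronic regions with folds of 2.73 and 2.84. Lpin2, a phosphatidate phosphatase, stood in both lists at different starts. At an internal start the KO pileup was 20.5 against a WT background of 4.0 (fold 4.30, KO over WT), and at the other start the KO background was 51.6 against a WT pileup of 101 (fold 1.94, WT over KO).

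Growth factor and immediate early genes made up the next group. Areg, the EGF receptor ligand amphiregulin, had 2 regions within the gene. At 1341 bp from the start the KO pileup was 74.4 against a WT background of 24 (fold 3.02), and at 5537 bp the KO pileup was 33.4 against a WT background of 5.0 (fold 5.72). Ereg, the neighbouring ligand epiregulin, had a promoter region with a KO pileup of 41.9 against a WT background of 16 (fold 2.52). Fos, an immediate early transcription factor, had a KO pileup of 52.2 against a WT background of 18 in an exon (fold 2.80). Nr1d1, the clock repressor REV-ERBα that itself binds NCoR1, had a promoter region with a KO pileup of 57.3 against a WT background of 23 (fold 2.43). Of the 31 growth factor genes, 2 (6.45%) had a KO-higher region and 12 (38.7%, 23.7 to 56.2%) a WT-higher one. The shares of all genes were 0.300% and 15.2%.

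The small proline-rich genes Sprr2a2 and Sprr2a3, which encode cornified envelope proteins, had KO pileups of 76.1 and 69.3 against WT backgrounds of 14 and 17. They are near-identical copies, so reads may have been shared between them and the 2 values are uncertain. The same holds for the region assigned to Gm11127, an MHC class I-like gene (KO pileup 53 against WT background 4.04, fold 10.7). That region lay between genes, at -25699 bp from the gene's start. At its promoter Gm11127 had a WT-higher region, with a KO background of 35.9 against a WT pileup of 63 (fold 1.73, WT over KO).

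A stretch at Vil1, which encodes the microvillus protein villin, stood apart. Its 8 KO-higher H3K4me3 regions spanned 13143 bp, chr1:74448567-74461709, from upstream of the gene into its introns, with folds of 4.18 to 50.9. The region with the highest -log10 q of the KO-higher list (277) lay there, at -7021 bp from the start, with a KO pileup of 203 against a WT background of 3.0. KO-higher regions of 3 other marks covered the same stretch, 10 of H3K9ac with folds to 11.5 and 11 of the heterochromatin mark H3K9me3 with folds to 71, while H3K27ac had 14 with folds to 12.7 that reached further to both sides. Mt1, a metallothionein gene, also combined H3K4me3 (KO pileup 245 against WT background 87, fold 2.79) with KO-higher H3K9me3 (fold 85.1) over the same DNA. Villin regulatory DNA is widely used to drive transgenes in the gut epithelium. Whether the KO animals carry further copies of either sequence was not tested.

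WT-higher H3K4me3 was spread over many genes at modest folds. Of the 3303 genes, 2949 had 1 region, 295 had 2 and 59 had 3 or more, whereas 53 of the 65 KO-higher genes had 1. At the 2784 promoter regions the median KO background was 47.9 against a median WT pileup of 93, and the median fold was 1.91. The KO background was under 10 at 91 of them (3.27%), and the fold was at least 4 at 25 (0.898%). Few of these promoters thus had a KO background close to the lowest value. Among the WT-higher promoters with the highest folds were those of Gabrb2, a GABA receptor subunit (KO background 3.41, WT pileup 26, fold 6.12), Susd2, a sushi domain protein (KO background 4.80, WT pileup 33, fold 5.87), and Bcl2l14, a BCL2 family gene (KO background 2.65, WT pileup 20, fold 5.75). Slc15a2, a peptide transporter, had a KO background of 2.57 against a WT pileup of 19 (fold 5.61), and Bzw1, a translation regulator, had a KO background of 14.3 against a WT pileup of 82 at chr1:58449348-58449822 (fold 5.44). The KO background was low in 4 of these 5 and clearly above the lowest value in Bzw1.

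The highest folds of the whole WT-higher list lay away from promoters and at low signal. The region near Osbp, an oxysterol-binding protein gene, lay at -11504 bp from the start and had a KO background of 2.57 against a WT pileup of 28 (fold 8.13). Trim71, a developmental RNA-binding protein gene, had a region at -19703 bp from its start with a KO background of 9.72 against a WT pileup of 57 (fold 5.41). Genes with several regions included Mamdc4, which encodes the neonatal endocytosis protein endotubin, with 6 regions, of which the one with the highest fold had a KO background of 30.8 against a WT pileup of 98 (fold 3.11). Anpep, the brush border aminopeptidase N, had 5 regions with folds of 1.84 to 2.36. Npr3, a natriuretic peptide clearance receptor, had 5 with folds of 2.46 to 4.11. Rbfox3, a neuronal splicing factor, had 4 with folds of 3.06 to 5.30, including one of the 5 widest WT-higher regions (1005 bp).

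A second stretch apart held the region with the highest -log10 q of the WT-higher list (53.2), at Dynlt1b, a dynein light chain gene, with a KO background of 35.9 against a WT pileup of 175. On chromosome 17 between 6.2 and 6.6 Mb, 32 WT-higher H3K4me3 regions were listed, and WT-higher regions of all 6 marks lay there (11 to 55 a mark), with no KO-higher region of H3K4me3, H3K9ac, H3K27ac or H3K9me3, the 4 marks with a KO-higher list. Its genes, Dynlt1b and Tmem181b-ps among them, have near-identical copies, so these counts are uncertain. The added contig held 9 WT-higher and no KO-higher H3K4me3 regions. Whether the genotypes differ in copies of these sequences was not tested.

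Gene groups were read against the 15.2% of all genes with a WT-higher region. They were not matched for promoter CpG, although a WT-higher promoter region was at 19.3% of high and 3.78% of low CpG genes. A share above 15.2% is therefore not by itself a result about a group. Stem cell and Wnt genes had one at 8 of 25 (32.0%, 17.2 to 51.6%), among them the promoters of the telomerase gene Tert (KO background 27.4, WT pileup 66, fold 2.36) and of the Wnt feedback gene Nkd1 (KO background 28.2, WT pileup 67, fold 2.33). Imprinted genes had one at 7 of 20 (35.0%), such as Grb10, an adaptor that restrains insulin signalling, with 3 promoter regions at folds of 2.19 to 2.67. Developmental transcription factors had one at 16 of 53 (30.2%, 19.5 to 43.5%). At promoters they had one at 7 of 53 (13.2%), beside 11.9% of all genes, so the larger share came from regions further from a start. Tbx2, a T-box factor, was the strongest at a promoter, with a KO background of 17 against a WT pileup of 66 (fold 3.71). Their 19 regions had a median KO background of 19.7 against a median WT pileup of 52, and the 8 regions of ribosomal protein genes had a median KO background of 70.1 against a median WT pileup of 124. Of the 20 groups looked at, growth factor, imprinted, stem cell and Wnt, and developmental genes had the highest shares with a WT-higher region. The groups were chosen with earlier results known, so no set test was run, and the intervals cover counting error only. With regions counted in the gene body and the 2 kb before it, developmental factors were 9 of 53 (17%, 9.2 to 29.2%). Imprinted genes were then 5 of 20 (25%, 11.2 to 46.9%), beside 15.2% of all genes. Both shares were lower by that rule, and the developmental share was close to that of all genes. Growth factor genes were 12 of 31 and stem cell and Wnt genes 8 of 25 by that rule too. At a -log10 q of at least 5, growth factor genes were 2 of 31, and all genes 1239 of 21693.

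Suckling genes had a WT-higher region at 6 of 24 (25%), all at promoters. Lct, the milk sugar enzyme lactase, had a KO background of 45.3 against a WT pileup of 87 (fold 1.90). Nox4, an oxidase gene, had a KO background of 39.3 against a WT pileup of 85 (fold 2.13). Cholesterol synthesis genes were in the WT-higher list at promoters. Lss, lanosterol synthase, had a KO background of 50.5 against a WT pileup of 105 (fold 2.06), and Sqle, squalene epoxidase, had a KO background of 53.9 against a WT pileup of 101 (fold 1.86). In all 5 of 29 synthesis genes had one (17.2%), close to the share of all genes. PPAR genes with one were also 5 of 29 (17.2%). Oxidative phosphorylation genes had one at 7 of 30 (23.3%), ribosomal protein genes at 8 of 37 (21.6%), proliferation genes at 7 of 26 (26.9%), and inflammation and MHC genes at 6 of 25 (24.0%). Targets of thyroid hormone, retinoic acid and vitamin D had one at 5 of 23 (21.7%). Detoxification genes had one at 1 of 30 (3.33%), Nr1i2, which encodes the xenobiotic receptor PXR (KO background 80.4, WT pileup 128, fold 1.59).

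Writers, erasers and readers of H3K4 methylation had a WT-higher region at 3 of 26 (11.5%). Rbbp5, a core subunit of the methyltransferase complexes, had a KO background of 74.4 against a WT pileup of 133 (fold 1.78). Kdm6a, which encodes the UTX subunit of the MLL3 and MLL4 complexes, had a KO background of 83.8 against a WT pileup of 133 (fold 1.58). Mll1 had a KO background of 76.1 against a WT pileup of 113 (fold 1.48). Corepressor, coactivator and deacetylase genes had one at 6 of 22 (27.3%), with the highest fold at the deacetylase gene Hdac7 (KO background 21.5, WT pileup 59, fold 2.67). Enterocyte identity genes had a KO-higher region at 2 of 24 (Vil1 and Apob) and a WT-higher one at 2 (Hnf4a and Gata4). Each share was 8.33% (2.32 to 25.8%), beside 0.300% (KO-higher) and 15.2% (WT-higher) of all genes. The KO-higher share rests on the Vil1 stretch set apart above and on 1 weak Apob region. That region lay in an exon, 11021 bp from the start, with a KO pileup of 16.25 against a WT background of 2.0, near the list's lowest value. Markers of secretory cells had a WT-higher region at 3 of 29, of immune cells at 1 of 18 (Ikzf1) and of stromal and vessel cells at 2 of 20 (Des and Twist1). Each of these shares lay below the 15.2% of all genes, and each Wilson interval included 15.2%. None of these markers had a KO-higher region. With 0.300% of all genes in that list, groups this small would seldom hold one. Since the lists hold differences, they do not show which cell types the libraries contained, and fewer cells of a type and less mark per cell cannot be told apart. With 1 library per genotype, neither can be told apart from a difference in enrichment between the 2 libraries.

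**Figure D4:**
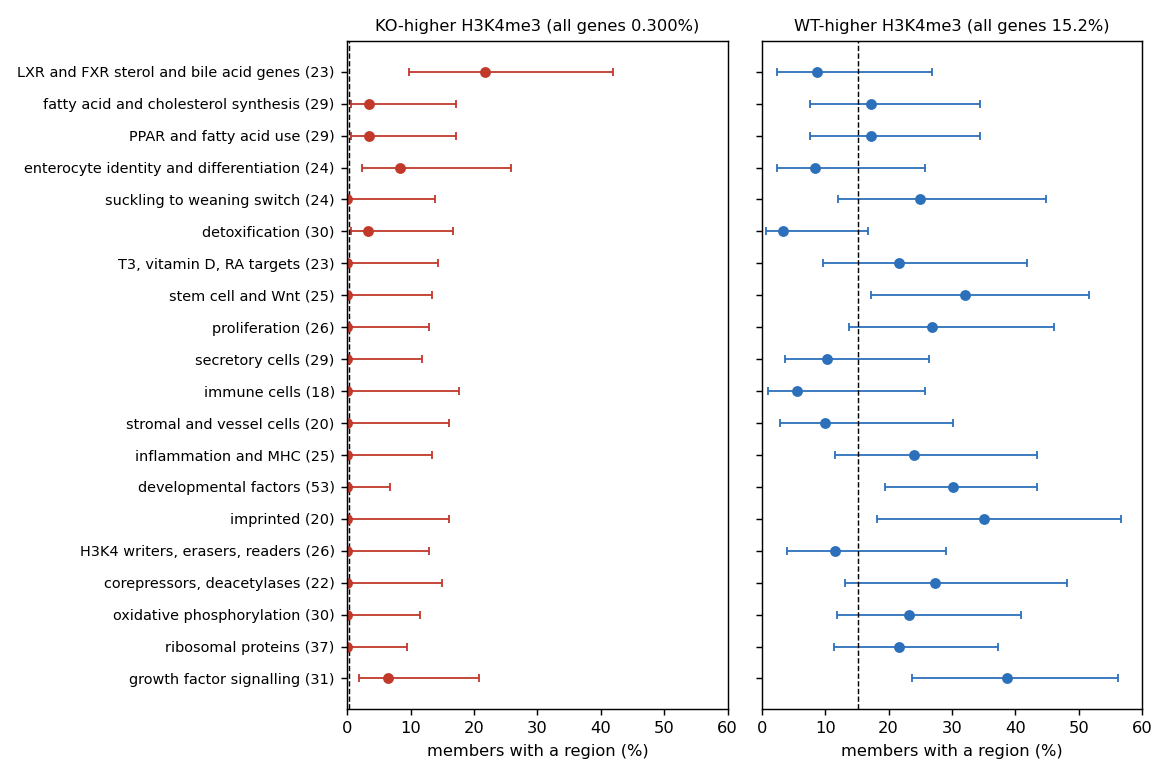
Points give the percentage of each gene group (number of annotated members in parentheses) with a KO-higher (left) or WT-higher (right) H3K4me3 region, with Wilson 95% intervals. Dashed lines mark all genes, 0.300% on the left and 15.2% on the right. The LXR and FXR group, put together with earlier results of these data known, stands at 21.7% on the left. Its 5 members there include Abcg5 and Abcg8, whose gene models overlap.

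H3K4me3 differences were set beside those of the other marks, of which H3K9ac and H3K27ac accompany active promoters and enhancers. KO-higher H3K9ac overlapped 43 of the 131 KO-higher H3K4me3 regions by at least 1 bp (32.8%), and H3K27ac of that direction overlapped 39 (29.8%). These were 42 of 1882 H3K9ac (2.23%) and 38 of 7094 H3K27ac regions (0.536%). Of the 18 promoter regions, 14 shared bases with KO-higher acetylation of either kind, and none of the 131 shared bases with WT-higher acetylation. WT-higher H3K9ac overlapped 423 of the 4141 WT-higher H3K4me3 regions (10.2%), and H3K27ac of that direction overlapped 339 (8.19%), which was 19.7% and 13.4% of those lists. KO-higher acetylation of either kind met 33 WT-higher H3K4me3 regions (0.797%).

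The KO-higher list split along this line. The 51 regions with KO-higher acetylation had a median KO pileup of 53 against a median WT background of 12, and 2 of them lay beyond 50 kb from a start. The 80 without it had a median KO pileup of 17.1 against a median WT background of 2.30, and 43 lay beyond 50 kb. All regions of Vil1, Srebf1, Abcg5 and Abcg8 were among the 51. At the genes, Abca1 carried 4 KO-higher H3K9ac and 9 H3K27ac regions. Srebf1 carried 16 KO-higher H3K9ac and 26 H3K27ac regions, Hgd 10 of H3K9ac and 13 of H3K27ac, and Pdk4 10 of H3K9ac and 4 of H3K27ac. The same genes held 2 (Abca1), 1 (Srebf1), 0 (Hgd) and 0 (Pdk4) WT-higher H3K4me1 regions. Of the 12 KO-higher H3K4me3 regions that shared bases with KO-higher H3K9me3, 9 were those at Vil1 and Mt1.

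**Figure D5:**
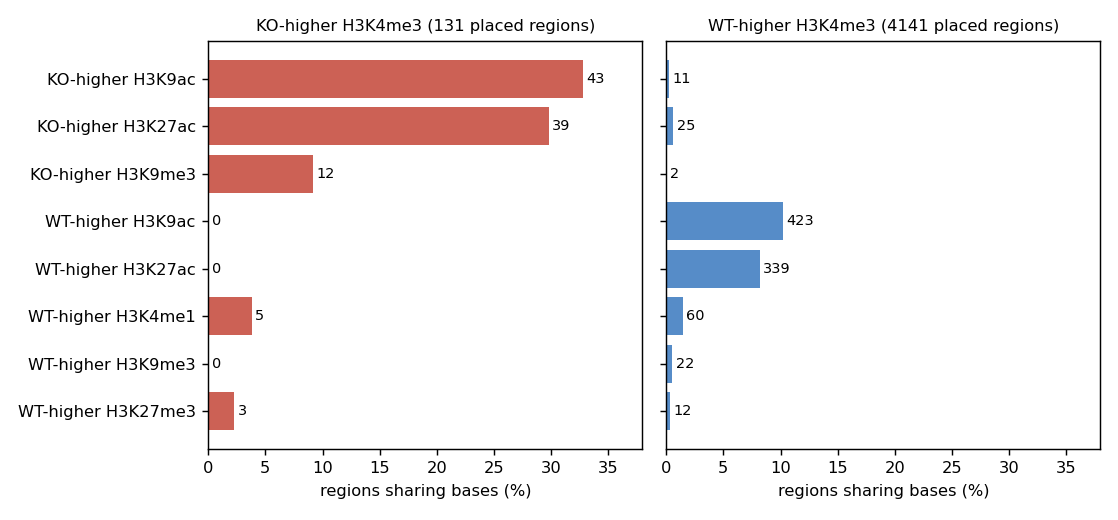
Bars give the percentage of KO-higher (left, 131) and WT-higher (right, 4141) H3K4me3 regions that share at least 1 bp with regions of each other list, with the number of regions at the bar. Acetylation of the same direction gives the longest bars in both panels. Acetylation of the opposite direction met few regions in either panel, 0 KO-higher ones and 11 (H3K9ac) and 25 (H3K27ac) WT-higher ones.

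RNA values came from the authors' deposited table. It covers genes nearest to WT-higher H3K4me1 regions, so the genes in it were chosen on another KO to WT difference. The log2 fold change is read as KO over WT. Of its 1295 genes used here, 75 (5.79%) had higher and 136 (10.5%) lower RNA in KO at the authors' FDR of 0.05. A KO-higher H3K4me3 region was found at 7 of the 75 (9.33%, 4.59 to 18%), at 1 of the 136 (0.735%) and at 2 of the 1084 others (0.185%). A WT-higher region was found at 10 of the 75 (13.3%, 7.41 to 22.8%), at 56 of the 136 (41.2%, 33.3 to 49.6%) and at 270 of the 1084 others (24.9%, 22.4 to 27.6%). By this reading, genes with lower RNA in KO had the larger share of WT-higher H3K4me3. The sign of the fold change rests on the naming of its column alone, and if it were turned, the groups of 75 and 136 genes would change places. Of the 1295 genes together, 336 had a WT-higher and 10 a KO-higher region. The shares of all protein-coding genes were 15.2% and 0.300%. The intervals cover counting error only, since genes of 1 library per genotype are not replicates.

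In the authors' deposited table, the KO-higher genes with the highest RNA change were Abca1 (log2 fold change 2.83, FDR 8.6e-113), Scd2 (1.72, FDR 1.23e-81) and Abcg5 (1.23, FDR 6.38e-56). Efna1, an ephrin ligand gene, Fos and the phosphatase gene Dusp6 followed in that table with 0.55, 0.51 and 0.37, and the 1 gene with lower RNA was Zfp462 (-0.33). Zfp462 stood in both lists, with 4 WT-higher regions (folds of 1.48 to 2.57, WT over KO) beside its 1 KO-higher region (KO pileup 23.1 against WT background 5.09). Srebf1, Pdk4, Hgd and Areg are not among the genes used from it. Among WT-higher promoters, that of Mogat1, a monoacylglycerol acyltransferase gene, had a KO background of 26.5 against a WT pileup of 58 (fold 2.14). Mogat1 had a log2 fold change of -2.68 in the authors' deposited table (FDR 2.15e-11). Susd2 had -1.45 (FDR 3.29e-44) and Rbfox3 -2.37 (FDR 2.63e-14) in the authors' deposited table. Mogat1 was chosen after its values were seen. The opposite pairing also occurred, since Actb, cytoplasmic actin, had a WT-higher promoter region (KO background 117 against WT pileup 169, fold 1.44) and a log2 fold change of 0.36 in the authors' deposited table.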

How the data were processed

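H3K4me3 was profiled by chromatin immunoprecipitation and sequencing in 1 KO and 1 WT library, of 12 such libraries for 6 marks; 4 input libraries were not used. Per the labels' protocols, libraries were read for 50 cycles and mapped to mm9. Bowtie2 2.2.9, CASAVA 1.8.2, HOMER 3.12 and MACS2 2.1.1 are the tools in the submitters' processing notes. The headers instead name MACS 2.0.10.20130419 and tags of 75 bp, which was not resolved. Per the file headers, the other genotype's library served as control, the q cutoff was 0.05 and 1 tag per position was kept.

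Each deposited region has, per the file headers, a signal (the summit pileup, at the depth of the smaller library), a ratio (the fold over local background), and its p-value and q-value as -log10. The background was recovered from pileup and fold, and the deposited p-values were recomputed from it within 1% at all regions of both lists. The authors give log2 fold changes of RNA with an FDR, an adjusted p-value, in a table with the repeated H3K4me1 list. Its direction was read from HOMER's column naming; the tool behind the RNA values is not given in the sources. Its 12 per-library columns entered no calculation, although a few of their values were seen when the columns were looked at. Of 12 lists, 2 (KO H3K27me3 and H3K4me1) hold the WT list's regions again, and 10 were used.

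With Python 3.11.15, pysam 0.24.0 and pandas 2.3.3, regions were joined to GENCODE starts within 50 kb of the summit, and to promoters within 1 kb. Functions were checked on simulated data. The list for gene shares held 21693 protein-coding genes; chromosomes 18 and Y are not reported here. Regions in 25 places of unplaced sequence, 9 of them on the added contig, have no gene. Depth was 35042309 KO and 30630356 WT tags in all, of which 83.0% and 81.2% were kept. Wilson 95% intervals cover counting error only, and PCR copies beyond 1 per position were removed.

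Members, gene groups and tests were chosen with earlier results of these data known. Named were, in each list, genes of the 15 regions highest in -log10 q, those with most regions, the highest folds or the widest regions (WT-higher), those with KO-higher promoter regions or regions in both lists, up to 4 members of each gene group and direction by fold, and Ncor1; the text gives a part of them. Others are said to be chosen after their values were seen, among them Gabrb2, Susd2, Bcl2l14, Slc15a2, Actb, Fos, Fmo5, Efna1 and Dusp6. Alternatives changed the q or fold minimum, the promoter window, the distance limit, the gene rule, merging and the overlap, or left out stretches.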

Additional observations from a re-analysis of the deposited data

How the results depend on the processing

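No paired analysis was possible because each genotype had 1 H3K4me3 library, and no replicate could be left out. The excess of WT-higher regions kept its direction in every setting, but its size followed the minimum. At a -log10 q of at least 5 there were 61 KO-higher and 1483 WT-higher regions (KO-higher share 3.95%). At a fold of at least 3 the share was 12.1% with 796 WT-higher regions, and at a fold of at least 4 it was 18.9% with 81 KO-higher and 347 WT-higher regions. Folds under 3 made up the larger part of the WT-higher list.

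Regions at promoters were 22.1% (KO-higher) and 72.3% (WT-higher) with a window of 2.5 kb, 8.40% and 59.0% with 500 bp, and 70.5% of WT-higher ones with starts of all annotated genes. At promoters alone the median CpG ratio was 0.441 (KO-higher) and 0.761 (WT-higher), the median width 196 and 195 bp, and WT-higher GC content 66.7%. Away from promoters WT-higher medians were 0.48, 176 bp and 58.5%. At a -log10 q of at least 5, median GC content was 53.6% (KO-higher) and 64.2% (WT-higher), and WT-higher width 179 bp.

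Genes numbered 33 KO-higher, 1239 WT-higher and 1 in both lists at a -log10 q of at least 5, and 37 KO-higher within 10 kb. At that minimum of 5, KO-higher LXR and FXR genes were still 5, synthesis and detoxification genes fell to 0 and growth factor genes to 1. WT-higher members were then 0 for LXR and FXR, enterocyte, detoxification, immune and stromal genes, 1 for synthesis and H3K4 methylation genes, 2 for suckling, thyroid, proliferation, oxidative phosphorylation and growth factor genes, 3 for stem cell, imprinted, corepressor and ribosomal genes, and 5 for developmental factors. So the growth factor share rests on regions of low -log10 q. Counting regions in the gene body gave 9 developmental factors and 1 LXR and FXR gene (WT-higher). Within 10 kb, KO-higher synthesis genes were 0 and enterocyte genes 1; without the stretches at Vil1 and Mt1, enterocyte genes were 1 and regions with KO-higher H3K9me3 were 3.

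At a -log10 q of at least 5, KO-higher H3K4me3 shared bases with 28 (KO-higher H3K9ac), 24 (KO-higher H3K27ac) and 1 (WT-higher H3K4me1) regions. WT-higher H3K4me3 did so with WT-higher H3K9ac at 80, H3K27ac at 100, H3K4me1 at 12, H3K9me3 at 9 and H3K27me3 at 2, and with KO-higher H3K9ac at 1, H3K27ac at 4 and H3K9me3 at 0. With the larger overlap asked for, 50% of the H3K4me3 region, WT-higher H3K27me3 met 1 KO-higher H3K4me3 region. At the authors' FDR under 0.01, genes with lower RNA had a KO-higher region in 0%, and within 10 kb the other genes had a WT-higher one in 21.9%. Leaving out the chromosome 17 stretch and the added contig, an alternative chosen after seeing the data, moved no count by over 1.5 times. A pileup under 20 was found at 62 of 131 KO-higher and 377 of 4166 WT-higher regions, where few fragments stand behind the values.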
